A study of Mus musculus with 40 samples.

Results

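Regulatory T cells (Treg) of the small intestinal epithelium were compared with Treg of the lamina propria, the connective tissue beneath it. The comparison used every library labelled as a Treg library of small intestinal intraepithelial lymphocytes (IEL, replicates 1 to 3) or of lamina propria lymphocytes (LPL, replicates 1 to 3), which made 6 of the 40 libraries of the series, and all genes were tested between them. The mice were wild type, carried a Foxp3-Thy1.1 reporter and were perfused, and the tissues were digested. Treg were CD4+ cells positive for the reporter, and 2000 cells were sorted per library. Conventional CD4+ T cells (Tconv), negative for the reporter, were represented by 1 library from each compartment. RNA was read at the 3′ ends of polyadenylated transcripts (QuantSeq), so the counts were not divided by gene length and levels are given as CPM, a gene's count scaled so that every library has the same total. The labels do not say which libraries came from the same animal, so p-values and standard errors (SE) measure the spread between these samples, which may be technical.

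Foxp3 is the transcription factor that defines Treg, and in the gut wall Treg restrain responses to food and to microbes. Lymphocytes of the epithelium are held there by the integrin that pairs the product of Itgae (CD103) with the beta-7 chain and binds E-cadherin on epithelial cells, and they are known for granule proteins of cytotoxic cells. Lamina propria Treg are known as a source of interleukin 10, and part of them carry the interleukin 33 receptor and the transcription factor Gata3.

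The 6 libraries held 21608197 to 28823493 counts, and 17601 to 19014 genes had at least 1 count. Foxp3 (ENSMUSG00000039521.13, chrX:7573644-7595245, plus strand, build mm10) was counted at 279, 317 and 279 CPM in the IEL libraries and 219, 273 and 262 CPM in the LPL libraries. It did not pass the test between the compartments (log2 fold change 0.14 ± 0.12 SE, adjusted p = 0.595; edgeR's quasi-likelihood test with Benjamini-Hochberg adjustment, the test behind every adjusted p given here). In the IEL and LPL Tconv libraries Foxp3 stood at 0.179 and 0.654 CPM. Of the 4 genes chosen to check the compartment labels, Itgae and Gzmb passed as higher in IEL Treg, Il10 passed as higher in LPL Treg, and Ctla4 did not pass.

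Transcripts of epithelial cells were high in single libraries of both compartments. The sum over 32 enterocyte genes was 95, 104 and 2257 CPM in IEL replicates 1, 2 and 3 and 3458, 459 and 89.4 CPM in LPL replicates 1, 2 and 3. Krt8, a keratin of simple epithelia, was counted at 5.03, 6.7 and 75 CPM in the IEL libraries and 578, 37.3 and 0.0407 CPM in the LPL libraries. Genes of goblet, Paneth, tuft and enteroendocrine cells summed to 1472 CPM in LPL replicate 1 and to between 3.58 and 22.3 CPM in the other 5 libraries. IEL replicate 3 and LPL replicate 1 therefore stood apart, and LPL replicate 2 did so to a lesser degree. The share of counts from the 55 epithelial genes was 0.0836% ± 0.124 (SD, n = 3) in IEL and 0.183% ± 0.269 (SD, n = 3) in LPL libraries, a difference within the spread between replicates (exact two-sided permutation test, p = 0.7, where the smallest p that 3 against 3 samples allow is 0.1). With all 6 libraries and no covariate, none of the 28 enterocyte genes tested was called by edgeR, DESeq2 or limma voom, and none had an unadjusted p below 0.05. With the epithelial share as a covariate, 2 of the 28 were called higher in IEL and 1 higher in LPL. With IEL replicate 3 and LPL replicate 1 both left out, 20 of 23 tested leaned to LPL and 3 to IEL (median log2 fold change -1.61). In that setting 1 of the 23 was called higher in LPL. All 5 goblet, Paneth, tuft and enteroendocrine genes tested then leaned to IEL, with 1 called. Epcam, an adhesion molecule of epithelial cells, was at 77.3 CPM in LPL replicate 3, where Krt8 was near 0. Olfm4, a marker of crypt stem cells, was higher in each IEL library (34, 41.4 and 214 against 3.87, 0.0798 and 0.326 CPM) but did not pass (adjusted p = 0.156). In a principal component analysis of the 500 most variable genes the first component held 75% of the variance and set IEL replicate 3 and LPL replicates 1 and 2 apart from the other 3 libraries. The second component held 11.1% and set the 3 IEL libraries (16.2 to 23.3) apart from the 3 LPL libraries (-27.7 to -10.4).

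Transcripts of plasma cells, by contrast, divided the compartments. Jchain, the joining chain of secreted immunoglobulin A, was counted at 0.259, 0.451 and 0.509 CPM in the IEL libraries and 503, 303 and 233 CPM in the LPL libraries. Igha, the heavy chain constant region of immunoglobulin A, was at 6.92, 7.08 and 1.99 against 3963, 2144 and 1312 CPM, and Igkc, the kappa light chain constant region, was at 3.14, 1.8 and 1.39 against 1589, 808 and 814 CPM. These 3 genes were called, as was Derl3, a gene of protein degradation at the endoplasmic reticulum, and the 4 calls became 2 without IEL replicate 1, IEL replicate 2 or LPL replicate 2. The B cell gene Ms4a1 was at 0 in 5 of the 6 libraries (picked after its values were seen), and Ighm, the immunoglobulin M heavy chain, was not called (575, 574 and 550 against 533, 466 and 475 CPM). The sum over the 18 B cell and plasma cell genes was 634, 638 and 606 CPM in IEL against 6681, 3785 and 2887 CPM in LPL libraries, with no overlap. Genes of CD8 and gamma delta T cells moved the other way, at 61, 80 and 61.4 CPM in IEL and 20.7, 22.1 and 26.6 CPM in LPL libraries. The same genes summed to between 25.6 and 66.5 CPM (median 44.8) in the Treg libraries of the other sources. Of their 7 tested members only Tcrg-C2, a constant region of the gamma T cell receptor chain, was called by edgeR (11.9, 10.9 and 11.5 against 2.26, 1.32 and 2.69 CPM), while Cd8a stood at 20.8, 40.6 and 28 against 4.69, 2.55 and 10.5 CPM with an adjusted p of 0.0637. DESeq2 called 4 of the 7 and limma voom 2, and 4 had an unadjusted p below 0.05 in edgeR. The part of these other cells in the differences below was not tested, except as stated. In sorted bulk samples, fewer cells of a type and less RNA per cell cannot be told apart.

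**Figure D1:**
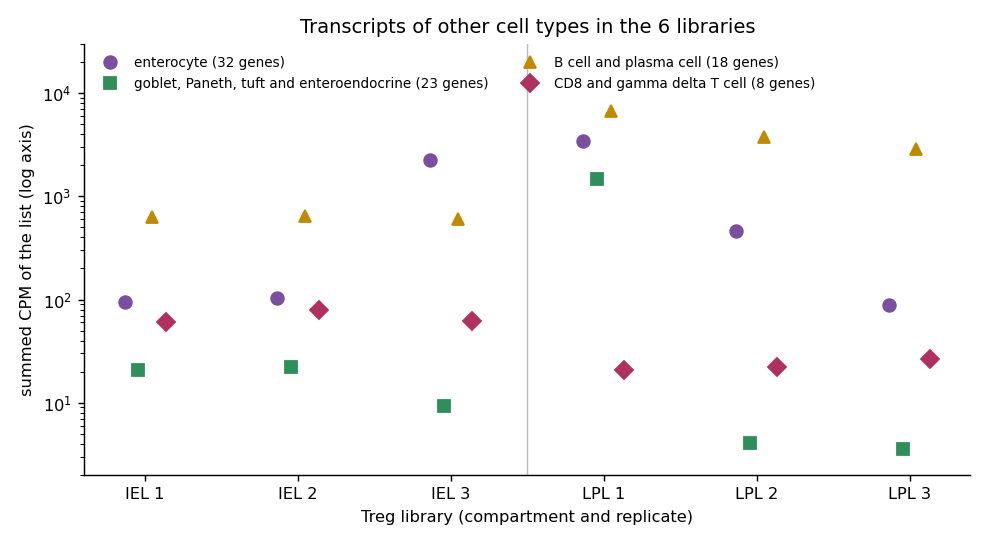
Summed CPM (log axis) of 4 marker lists in each of the 6 Treg libraries, with compartment and replicate on the x axis. Enterocyte transcripts peak at 2257 CPM in IEL replicate 3 and 3458 CPM in LPL replicate 1, while B cell and plasma cell transcripts lie between 2887 and 6681 CPM in all 3 LPL libraries and between 606 and 638 CPM in the IEL libraries.

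Of 14164 genes tested, 740 differed between IEL and LPL Treg at an adjusted p below 0.05, which is 5.22% of them. Of these, 313 genes (2.21%) were higher in IEL and 427 (3.01%) higher in LPL, and 108 and 181 of them differed by at least 2-fold. The 3 libraries of each compartment did not overlap for 4068 genes, 28.7% of those tested. The number of calls depended on the libraries and on the fit. It was 215 without IEL replicate 1, 321 without IEL replicate 2, 418 without IEL replicate 3, 226 without LPL replicate 2, 345 without LPL replicate 3 and 581 without LPL replicate 1. With IEL replicate 3 and LPL replicate 1 both left out, 564 genes were called, 174 higher in IEL and 390 higher in LPL. When all 30 Treg libraries of the series shared an estimate of the spread, 8 genes were called between the compartments. These were Cd7 and Apol9b, higher in IEL, and Cd83, Ccr8, Ccr10, Il7r and the immunoglobulin genes Igkc and Iglv1, higher in LPL. Of the 8, 7 were among the 740, and Iglv1 was not tested in the fit of the 6 libraries. Over the 14149 genes tested in both fits, the median gene-wise biological coefficient of variation was 0.356 in that fit and 0.307 in the fit of the 6 gut libraries, and the median of its trend was 0.362 and 0.364. The Wald test of DESeq2 called 1539 genes. All 740 genes kept their direction in all but 1 of the 15 alternatives, and in that alternative, which removed markers of other cells, the 734 of them that were tested did too.

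**Figure D2:**
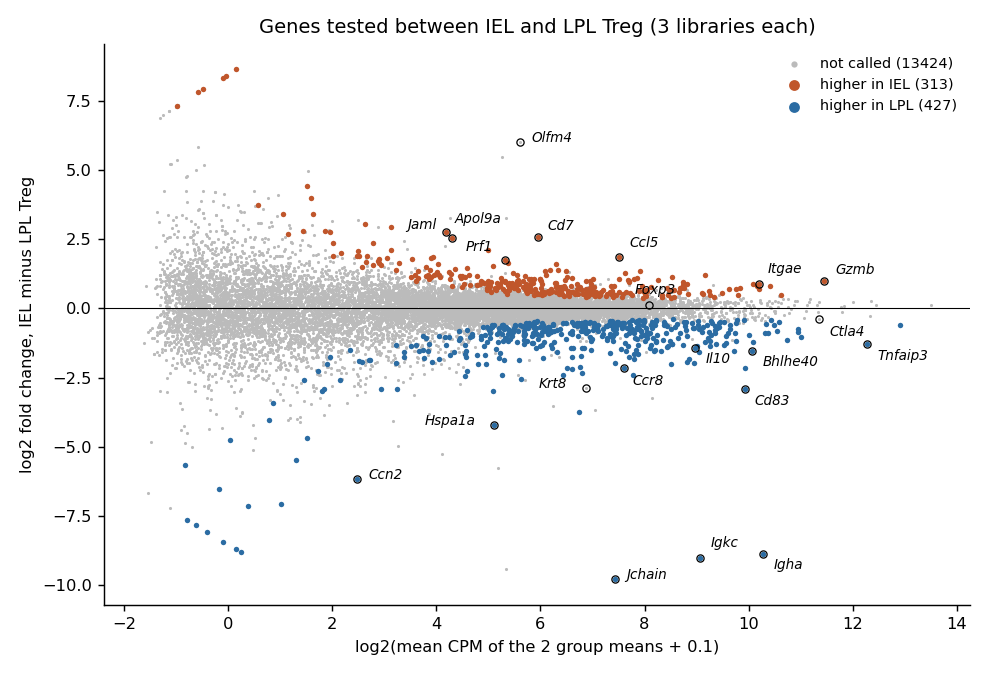
Log2 fold change (IEL minus LPL Treg) of the 14164 tested genes against their mean level, with the 313 genes called higher in IEL and the 427 called higher in LPL in colour and named genes ringed. The plasma cell genes Jchain, Igkc and Igha lie lowest among the ringed genes, and Cd83 and Ccr8 are the LPL genes with the smallest p.

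Integrins and adhesion molecules hold lymphocytes in the epithelium. Itgae (ENSMUSG00000005947.11, chr11:73090583-73147446, plus strand) was counted at 1515, 1680 and 1448 CPM in the IEL libraries and 671, 817 and 877 CPM in the LPL libraries (log2 fold change 0.90 ± 0.13 SE, adjusted p = 0.00587). All 3 IEL libraries exceeded every LPL library. Jaml, a junctional adhesion molecule of leukocytes that binds the coxsackie and adenovirus receptor of epithelial cells, was at 35.4, 42 and 23.5 against 7.2, 4.79 and 4.64 CPM (2.54 ± 0.29 on the log2 scale, also without overlap). Itga1, the collagen-binding integrin alpha-1 chain, was at 27.8, 24.3 and 20.3 against 9.25, 7.34 and 2.57 CPM and lost its call when a library was left out (highest adjusted p 0.158). Itgb2, the beta chain of LFA-1, was also higher in IEL (0.52 ± 0.09), as were Cd96 and Cd226, receptors for nectin-type ligands (0.65 ± 0.12 and 0.82 ± 0.13). Of 24 integrin and adhesion genes tested, 6 were higher in IEL and 2 were higher in LPL. The share called was 33.3%, against 5.22% of all genes tested. The count of 6 fell to 2 without IEL replicate 1 or LPL replicate 2 and to 3 without IEL replicate 2, and was 4 without IEL replicate 3, and the count of 2 was 0 without IEL replicate 1, 1 without IEL replicate 3, LPL replicate 2 or LPL replicate 3, and 4 with both libraries rich in enterocyte transcripts left out.

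The 2 adhesion genes higher in LPL were integrin chains that activate latent TGF-beta. Itgav was counted at 166, 250 and 198 CPM in the IEL libraries and 383, 575 and 519 CPM in the LPL libraries (log2 fold change -1.34 ± 0.20 SE, adjusted p = 0.00908), and Itgb8 at 50.2, 61.5 and 64.3 against 88.5, 124 and 149 CPM (log2 fold change -1.11 ± 0.20 SE, adjusted p = 0.0179). Neither gene overlapped between the compartments. Leaving out 1 library raised the adjusted p of Itgav to at most 0.0511 and that of Itgb8 to at most 0.104.

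Among chemokine receptors, Ccr9, which guides cells to the small intestine, was counted at 1828, 1666 and 1799 CPM in the IEL libraries and 853, 932 and 1107 CPM in the LPL libraries (log2 fold change 0.80 ± 0.12 SE, adjusted p = 0.00834). It was higher in every IEL library than in any LPL library. Cxcr3, a receptor of interferon-induced chemokines, was at 327, 275 and 307 against 154, 133 and 133 CPM (1.05 ± 0.11). Ccr8, a receptor found on activated tissue Treg, had the opposite pattern and stood at 76.7, 71.7 and 72 CPM in the IEL libraries and 310, 307 and 329 CPM in the LPL libraries (log2 fold change -2.17 ± 0.10 SE, adjusted p = 3.03e-05), with a spread of 71.7 to 76.7 CPM in IEL and 307 to 329 CPM in LPL. Cxcr4 was higher in LPL as well (116, 103 and 96.7 against 213, 182 and 227 CPM), and Ccr1 only just passed (log2 fold change -0.67 ± 0.16 SE, adjusted p = 0.0475). Ccr10, which is also known from plasma cells that secrete immunoglobulin A, had 1, 1 and 0 counts in IEL and 82, 112 and 90 counts in LPL libraries. Its CPM was 149 times higher in LPL, with a 95% interval of 40.8 to 1235 that covers counting error only. Of the 21 receptors tested, 2 were higher in IEL and 4 in LPL, a share of 28.6% against 5.22% of all genes tested. Only 1 was higher in IEL without IEL replicate 1 or LPL replicate 2.

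Of 16 cytotoxic granule genes tested, 7 (43.8%, against 2.21% of all genes tested) were called higher in IEL and none higher in LPL. The median log2 fold change was 0.47 against 0.01 over all genes tested. Prf1 (ENSMUSG00000037202.6, chr10:61297833-61304680, plus strand), which encodes the pore-forming protein perforin, was counted at 61.5, 67.1 and 57.7 CPM in the IEL libraries and 17.6, 18 and 17.4 CPM in the LPL libraries (log2 fold change 1.75 ± 0.14 SE, adjusted p = 4.64e-04), so that the lowest IEL library held over 3 times the level of the highest LPL library. Gzmb (ENSMUSG00000015437.5, chr14:56258838-56262260, minus strand), granzyme B, was at 4483, 3989 and 2864 CPM in the IEL libraries and 1801, 2307 and 1394 CPM in the LPL libraries (log2 fold change 0.98 ± 0.22 SE, adjusted p = 0.0452). The compartments did not overlap, but IEL replicate 3 at 2864 CPM came near LPL replicate 2 at 2307 CPM, and Gzmb was called in 8 of 15 alternatives. Gzma, granzyme A, was at 1303, 1169 and 991 against 613, 809 and 553 CPM (0.74 ± 0.16). Nkg7, a granule membrane protein (1.36 ± 0.17), Ctsw, cathepsin W (1.07 ± 0.10), and the death ligands Fasl (1.08 ± 0.14) and Tnfsf10 (0.66 ± 0.13) made up the 7. The count of 7 was 4 without IEL replicate 1, IEL replicate 2, LPL replicate 1 or LPL replicate 3, and it was 8, with a median of 0.73, with both libraries rich in enterocyte transcripts left out. The summed genes of CD8 and gamma delta T cells were higher in the same 3 libraries (61, 80 and 61.4 against 20.7, 22.1 and 26.6 CPM), and their part in these calls was not tested.

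The wider list of genes known from intraepithelial T cells gave 12 of 25 tested (48%, against 2.21% of all genes tested) as higher in IEL. None was higher in LPL, and the median was 0.80. Cd7, an immunoglobulin-family receptor of T and natural killer cells (ENSMUSG00000025163.6, chr11:121036747-121039418, minus strand), was at 129, 119 and 74.5 CPM in the IEL libraries and 16.3, 21.1 and 13.8 CPM in the LPL libraries (log2 fold change 2.58 ± 0.24 SE, adjusted p = 0.00131). IEL replicate 3 was the lowest of its group at 74.5 CPM and still over 3 times the highest LPL library. Ccl5, a chemokine kept in granules, was at 368, 218 and 277 against 99.3, 70.7 and 59.2 CPM (1.85 ± 0.24). The count of 12 was 6 without IEL replicate 1 or 2, 7 without LPL replicate 2, and 11 with both libraries rich in enterocyte transcripts left out. Klrk1 and Klre1, receptors of natural killer cells picked after their values were seen, had no count in any of the 6 libraries. A count of 0 allows up to 3 counts, or 0.104 to 0.139 CPM per library. Of 18 natural killer type receptors, 8 passed the filter on low counts, and 50% of these were called, against 5.22% of all genes tested. Slamf7 (28.3, 21.3 and 20.5 against 7.28, 6.02 and 5.34 CPM), Cd160 (124, 124 and 92.6 against 61.2, 63.8 and 60.9 CPM) and Cd244a (23.4, 19 and 11.4 against 5.1, 6.54 and 3.22 CPM) were higher in IEL, and Klrg1 was higher in LPL, a call lost without IEL replicate 1 or LPL replicate 2. The 3 became 1 without IEL replicate 1, IEL replicate 2, LPL replicate 2 or LPL replicate 3.

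**Figure D3:**
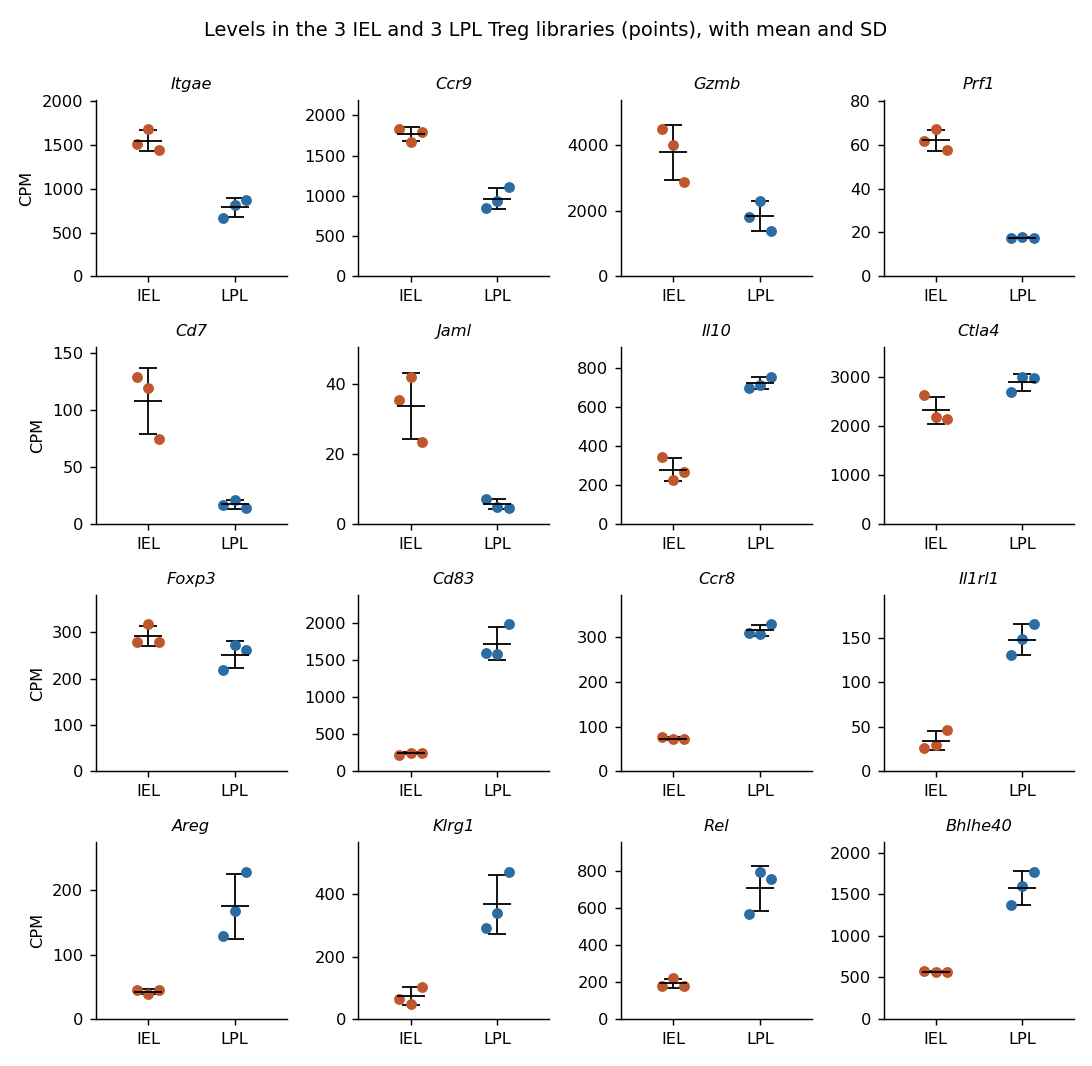
CPM of 16 genes in the 3 IEL and 3 LPL Treg libraries (points), with the mean and SD of each compartment, every axis starting at 0. Itgae, Ccr9, Gzmb, Prf1, Cd7 and Jaml are higher in each IEL library, Ctla4 and Foxp3 did not pass the test, and the other 8 genes are higher in each LPL library.

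The remaining genes with the smallest p among those at least 2-fold higher in IEL were of varied function. Dapk2, a calmodulin-regulated death-associated kinase, was at 112, 104 and 106 against 37.4, 43.2 and 35.5 CPM (1.40 ± 0.12), while its mean in Treg of the 8 other sources lay between 0.0153 CPM in blood and 9.56 CPM in Peyer's patch. Dtx1, a regulator of Notch signalling linked to T cell anergy, was at 813, 909 and 687 against 369, 337 and 299 CPM. Pglyrp2, an amidase that cleaves bacterial peptidoglycan, was at 136, 126 and 119 against 60, 50.6 and 53.7 CPM. Ccnt2, a cyclin of the transcription elongation factor P-TEFb, was at 124, 116 and 114 against 51.7, 37.5 and 38.7 CPM, and Sh2d3c, an adaptor in T cell trafficking, at 254, 262 and 237 against 110, 108 and 123 CPM. Armc7, a protein of armadillo repeats, was at 284, 284 and 270 against 121, 134 and 140 CPM. Unlike Dapk2, these genes were well above 0 in the other sources. From lung to Peyer's patch, the mean of Dtx1 ran from 117 to 1228 CPM, of Pglyrp2 from 74.2 to 128 CPM and of Sh2d3c from 86.9 to 214 CPM. Ccnt2 ran from 39.9 CPM in kidney to 108 CPM in spleen, and Armc7 from 61.1 CPM in pancreas to 123 CPM in blood. None of these genes overlapped between the compartments, which also held for 28.7% of all genes tested. Each was called in 14 of 15 alternatives, all but the fit of 30 libraries. Because the genes were picked by smallest p in these libraries, neither result is independent support.

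Genes of the interferon response leaned to IEL, and 21.7% of those tested were called in either direction, against 5.22% of all genes tested. Of 23 tested, 20 had a positive log2 fold change (median 0.41) and 4 were called higher in IEL, with 1 higher in LPL. Ifit1, an inhibitor of foreign RNA translation, was at 27.5, 29.6 and 38.1 against 14.6, 12.4 and 12.9 CPM (1.19 ± 0.20), and Irf7, a transcription factor of the type I interferon response, at 86.3, 93 and 98.1 against 48.9, 60.1 and 54.8 CPM (0.69 ± 0.13). Ifi203 passed narrowly (adjusted p = 0.0468), and Isg15 was the gene higher in LPL (-0.59 ± 0.14), a call that was lost whichever library was left out. The count of 4 was 1 without IEL replicate 1 or 3, 2 without IEL replicate 2 or LPL replicate 1, and 0 without LPL replicate 2 or 3. It was 1 with both libraries rich in enterocyte transcripts left out and 2 with DESeq2 size factors, where 20 of the 23 were above 0 as well. Outside the list, Ifit1bl1, a relative of Ifit1, was at 72.3, 53.3 and 64 against 17.2, 19.8 and 20.9 CPM (1.64 ± 0.17). Its mean in Treg of the other sources ran from 32.1 CPM in kidney to 203 CPM in liver, with 185 CPM in blood. All of these means were above the LPL mean of 19.3 CPM. The neighbouring apolipoprotein L genes Apol9a and Apol9b were at 40.5, 32.7 and 21.8 against 4.11, 3.11 and 6.11 CPM and 60.9, 55.7 and 38.9 against 9.38, 9.62 and 14.9 CPM (2.76 ± 0.34 and 2.12 ± 0.26). As near-identical copies their reads may be divided between them uncertainly.

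The letters of the interferon-stimulated response element were searched in promoters, from 250 bases before to 50 after the start of each gene (RefSeq, build GRCm38.p6), because interferon-related genes were among those higher in IEL. The motif, TTTC and again TTTC with any 2 bases between them, on either strand, was in 27 of 233 windows of genes higher in IEL (11.6%), 12 of 325 windows of genes higher in LPL (3.69%) and 316 of 10004 windows of all tested genes (3.16%). This motif was chosen after the calls were seen. A match is a description of the letters and not a site of binding. Windows of Ifit1bl1 (chr19:34601919-34602218, minus strand) and Jaml (chr9:45078933-45079232, plus strand), which were among the 3 genes higher in IEL with the smallest p whose windows held it, are shown with the motif in capitals.
Ifit1bl1: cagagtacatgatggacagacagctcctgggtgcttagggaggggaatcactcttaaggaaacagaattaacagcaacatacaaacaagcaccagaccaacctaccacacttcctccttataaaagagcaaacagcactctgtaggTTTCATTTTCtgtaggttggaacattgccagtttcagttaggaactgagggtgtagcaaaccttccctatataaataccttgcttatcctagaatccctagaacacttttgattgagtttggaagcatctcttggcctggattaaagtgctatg
Jaml: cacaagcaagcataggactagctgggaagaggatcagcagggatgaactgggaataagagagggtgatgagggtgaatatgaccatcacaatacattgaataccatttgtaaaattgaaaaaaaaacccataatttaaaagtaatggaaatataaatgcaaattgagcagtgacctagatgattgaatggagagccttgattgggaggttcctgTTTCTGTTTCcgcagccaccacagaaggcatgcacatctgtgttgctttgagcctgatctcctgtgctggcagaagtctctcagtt

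Signalling through cyclic AMP was represented on both sides. Ptger4, the prostaglandin E2 receptor EP4, was higher in IEL at 503, 502 and 544 CPM in the IEL libraries and 179, 212 and 280 CPM in the LPL libraries (log2 fold change 1.13 ± 0.17 SE, adjusted p = 0.00666), and so were Pde3b, a phosphodiesterase that degrades cyclic AMP (0.83 ± 0.16), and Rgs1, a regulator of G protein signalling (0.82 ± 0.16). Crem, a cyclic AMP responsive transcription factor, was higher in LPL at 247, 199 and 181 CPM in the IEL libraries and 683, 795 and 658 CPM in the LPL libraries (log2 fold change -1.84 ± 0.14 SE, adjusted p = 4.15e-04). Adora2a, an adenosine receptor, and Gprc5a were also higher in LPL (-1.16 ± 0.16 and -1.85 ± 0.35). Ramp3, a partner of receptors for adrenomedullin and calcitonin family peptides, was at 31.4, 28.7 and 25.3 against 146, 162 and 121 CPM (-2.39 ± 0.14), and Adm, which encodes adrenomedullin, had no count in IEL and 45, 46 and 70 counts in LPL libraries. Against a floor of 3 counts over the IEL group, Adm was at least 56.2-fold higher in LPL.

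The genes with the smallest p among those at least 2-fold higher in LPL were of varied function too. Cd83 (ENSMUSG00000015396.4, chr13:43784775-43803132, plus strand), a surface marker of activated lymphocytes and dendritic cells, was counted at 226, 245 and 253 CPM in the IEL libraries and 1592, 1583 and 1978 CPM in the LPL libraries (log2 fold change -2.90 ± 0.13 SE, adjusted p = 3.03e-05). Every LPL library held over 6 times the level of the highest IEL library, and the mean of Cd83 in Treg of the 8 other sources ran from 34.6 CPM in blood to 658 CPM in pancreas. Pim3, a survival kinase, was at 201, 229 and 199 against 712, 816 and 822 CPM (-1.97 ± 0.11), and Ifrd1, a transcriptional co-regulator, at 161, 155 and 133 against 548, 656 and 534 CPM (-2.02 ± 0.12). Gem, a small GTPase induced by activation, was at 56.4, 57.8 and 46.3 against 153, 180 and 169 CPM (-1.71 ± 0.13), and H2afz, a replacement histone, at 155, 137 and 169 against 432, 414 and 441 CPM (-1.55 ± 0.11). Pqlc1, a membrane protein of the PQ-loop family, was at 13.9, 17.6 and 12.9 against 93.2, 90.2 and 68.1 CPM (-2.56 ± 0.18). Acod1, which makes itaconate and is best known from macrophages, was low but did not overlap (2.26, 2.88 and 1.62 against 17.4, 16.4 and 15.5 CPM). The 22 myeloid genes summed to between 72.2 and 112 CPM in the 6 libraries, and their part in this result was not tested. Ccn2, a matricellular growth factor, was nearly absent from IEL (0.185, 0.173 and 0.0926 against 14.3, 9.06 and 8.96 CPM).

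Ell2, an elongation factor that also drives immunoglobulin secretion in plasma cells, was at 40.2, 41.5 and 34.7 CPM in the IEL libraries and 172, 211 and 174 CPM in the LPL libraries (log2 fold change -2.33 ± 0.13 SE, adjusted p = 1.17e-04). The plasma cell gene Jchain was higher in the same 3 libraries, and its part in the result for Ell2 was not tested.

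NF-kB transcription factors are released from inhibitors upon stimulation of antigen and TNF family receptors and induce their own feedback genes. All 16 NF-kB subunits and feedback genes tested had a negative log2 fold change (median -0.86). Of these, 10 were called higher in LPL (62.5%, against 3.01% of all genes tested). Among subunits, Rel, the c-Rel protein needed for Treg development, was counted at 178, 219 and 177 CPM in the IEL libraries and 567, 795 and 754 CPM in the LPL libraries (log2 fold change -1.95 ± 0.16 SE, adjusted p = 5.99e-04), with 219 CPM in the highest IEL and 567 CPM in the lowest LPL library. Nfkb2, the p100 subunit, was at 174, 185 and 185 against 278, 348 and 298 CPM (-0.83 ± 0.11). Among inhibitors and feedback genes, Nfkbid, an atypical IkB protein, was at 289, 270 and 269 against 607, 791 and 941 CPM (-1.57 ± 0.16), Nfkbib, which encodes IkB beta, at 70.4, 63.2 and 71.6 against 111, 130 and 122 CPM (-0.89 ± 0.12), Tnfaip3, which encodes the deubiquitinase A20, at 2911, 3346 and 2707 against 6004, 6956 and 7770 CPM (-1.28 ± 0.14), and Birc3, a ubiquitin ligase, at 228, 244 and 214 against 423, 514 and 540 CPM (-1.18 ± 0.12). The count of 10 ran from 7 to 13 when 1 library was left out and was 13 with both libraries rich in enterocyte transcripts left out. With all 30 Treg libraries in the fit it was 0. All 16 were below 0 with DESeq2 size factors as well (median -0.89).

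The NF-kB motif, read as GGGA, any base, TT, any base and CC, on either strand, was in 10 of 325 promoter windows of genes higher in LPL (3.08%), 5 of 233 of genes higher in IEL (2.15%) and 130 of 10004 of all tested genes (1.3%). The window of Rel (chr11:23770920-23771219, minus strand), whose gene had the smallest p among these 10, is shown because Rel itself belongs to the group, with the motif in capitals.
Rel: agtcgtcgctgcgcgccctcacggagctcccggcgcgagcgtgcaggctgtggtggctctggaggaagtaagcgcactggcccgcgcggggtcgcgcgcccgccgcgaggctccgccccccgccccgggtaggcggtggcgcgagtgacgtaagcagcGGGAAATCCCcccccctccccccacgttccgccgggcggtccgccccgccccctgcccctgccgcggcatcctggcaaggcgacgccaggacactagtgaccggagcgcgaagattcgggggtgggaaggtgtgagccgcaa
Of the other motifs searched on both strands, AP-1 (TGANTCA) was in 9.01% of windows of genes higher in IEL, 5.85% of those higher in LPL and 4.85% of all. ETS (CCGGAAG) was in 12.9%, 11.1% and 19%, RUNX (TGTGGTT) in 6.01%, 3.69% and 3.77%, and T-box (AGGTGTGA) in 1.72%, 0.923% and 0.91%. The AHR core (GCGTG) was in 44.6%, 54.2% and 50.9%, and the E-box (CACGTG) in 9.01%, 14.8% and 10.3%. None of these motifs contains another, although matches may overlap at their ends.

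Early response genes, which are induced rapidly by stimulation, also leaned to LPL. Of 26 tested, 12 were higher in LPL and 3 higher in IEL (median -0.49), a share of 57.7% against 5.22% of all genes tested. Atf3, a stress-induced transcription factor, was at 10.4, 9.3 and 4.07 CPM in the IEL libraries and 61.8, 60.4 and 56.8 CPM in the LPL libraries (log2 fold change -2.98 ± 0.32 SE, adjusted p = 0.00194). Nr4a3 and Nr4a1, nuclear receptors induced by antigen receptor signals, were at 84.2, 77.8 and 57.2 against 292, 299 and 225 CPM and 1183, 1193 and 942 against 2109, 2415 and 2436 CPM (-1.96 ± 0.17 and -1.14 ± 0.13), and the AP-1 genes Fosb and Maff at 14.1, 26.8 and 23 against 57.5, 83.7 and 81.5 CPM and 12.4, 14.4 and 14.6 against 28.4, 32.7 and 36.9 CPM. The 3 genes higher in IEL were Ier2 (1098, 1164 and 1017 against 632, 624 and 659 CPM, 0.71 ± 0.09), Dusp2 and Egr2, and the 3 became 1 without LPL replicate 2. The count of 12 was 5 without IEL replicate 1, 7 without LPL replicate 2 or 3, and 13 with both libraries rich in enterocyte transcripts left out. Among 16 heat shock genes, 4 (25%, against 3.01% of all genes tested) were higher in LPL and none higher in IEL. Hspa1a and Hspa1b, the inducible HSP70 chaperones, were at 4.37, 1.28 and 5.32 CPM in the IEL libraries and 75.2, 56.8 and 62.5 CPM in the LPL libraries for Hspa1a and 19.6, 8.78 and 18.6 against 232, 150 and 210 CPM for Hspa1b (-4.22 ± 0.52 and -3.73 ± 0.35). As near-identical copies these genes may share reads. Hspa5, a chaperone of the endoplasmic reticulum, and Hsp90aa1 made up the 4 (-0.75 ± 0.10 and -0.53 ± 0.12). Without IEL replicate 1 the heat shock count was 2. In Treg of the other sources the mean of Hspa1b ran from 1.3 CPM in lymph node to 3048 CPM (SD 2192) in kidney. That of Atf3 ran from 0.0621 CPM in blood to 188 CPM (SD 129) in kidney. The part of tissue digestion and cell isolation in the NF-kB, early response and heat shock calls was not tested.

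The tissue repair program of Treg depends on Gata3 and on interleukin 33. Of 15 of its genes tested, 6 (40%, against 3.01% of all genes tested) were higher in LPL and none in IEL, with a median of -1.10. Il1rl1, the interleukin 33 receptor ST2, was at 26.6, 29.8 and 46.8 CPM in the IEL libraries and 130, 148 and 165 CPM in the LPL libraries (log2 fold change -2.17 ± 0.22 SE, adjusted p = 0.00165), and Areg, the growth factor amphiregulin, at 44.8, 38 and 44.3 CPM in the IEL libraries and 129, 168 and 229 CPM in the LPL libraries (log2 fold change -2.12 ± 0.22 SE, adjusted p = 0.00142). Every LPL library held over 2 times the highest IEL level of either gene. Klrg1, a receptor for E-cadherin, varied more, at 65.4, 48 and 104 against 291, 340 and 473 CPM (log2 fold change -2.42 ± 0.35 SE, adjusted p = 0.0211). Nfil3 and Rgs2 were at 228, 191 and 151 against 364, 379 and 397 CPM and 226, 213 and 202 against 343, 405 and 433 CPM. With Ccr8 these are the 6, and their number was 5 to 7 when any 1 library was left out and 8 without both libraries rich in enterocyte transcripts. The mean of Areg in the other sources of Treg ran from 0.235 CPM in blood to 200 CPM in kidney.

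Of the helper lineage programs, Th1 and T-bet had 33.3% of its tested genes called and Th17 had 10.5%, against 5.22% of all genes tested. For transcription factors of T cell state the share was 17.9%. Of 12 genes tested of the Th1 and T-bet program, 3 were higher in IEL (Cxcr3 and Il12rb2 among them, the latter being the signalling chain of the interleukin 12 receptor, at 89.2, 89.6 and 114 against 38.2, 53 and 30.7 CPM) and 1, Hopx, was higher in LPL (-1.44 ± 0.19). The count of 3 was 1 without IEL replicate 1 and 1 without both libraries rich in enterocyte transcripts. Runx3, a factor of cytotoxic and intraepithelial lineages, did not pass (205, 209 and 187 against 128, 147 and 148 CPM, adjusted p = 0.0573). Of 19 genes of the Th17 program, 1 was higher in each compartment: Il6ra in IEL (1.13 ± 0.24, adjusted p up to 0.132 with 1 library left out) and Rora in LPL (386, 408 and 387 against 703, 814 and 859 CPM, -1.08 ± 0.11). Il17a and Il22 were low and overlapped (1.33, 3.19 and 2.18 against 5.84, 10.9 and 2.89 CPM for Il17a). Of 28 transcription factors of T cell state, 5 were higher in LPL and none in IEL. These were Rora, Nfil3, Epas1, which encodes the hypoxia factor HIF-2 alpha (29, 44.1 and 37.1 against 134, 175 and 166 CPM), Bcl6 (-1.19 ± 0.14) and Hif1a (-0.51 ± 0.12).

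**Figure D4:**
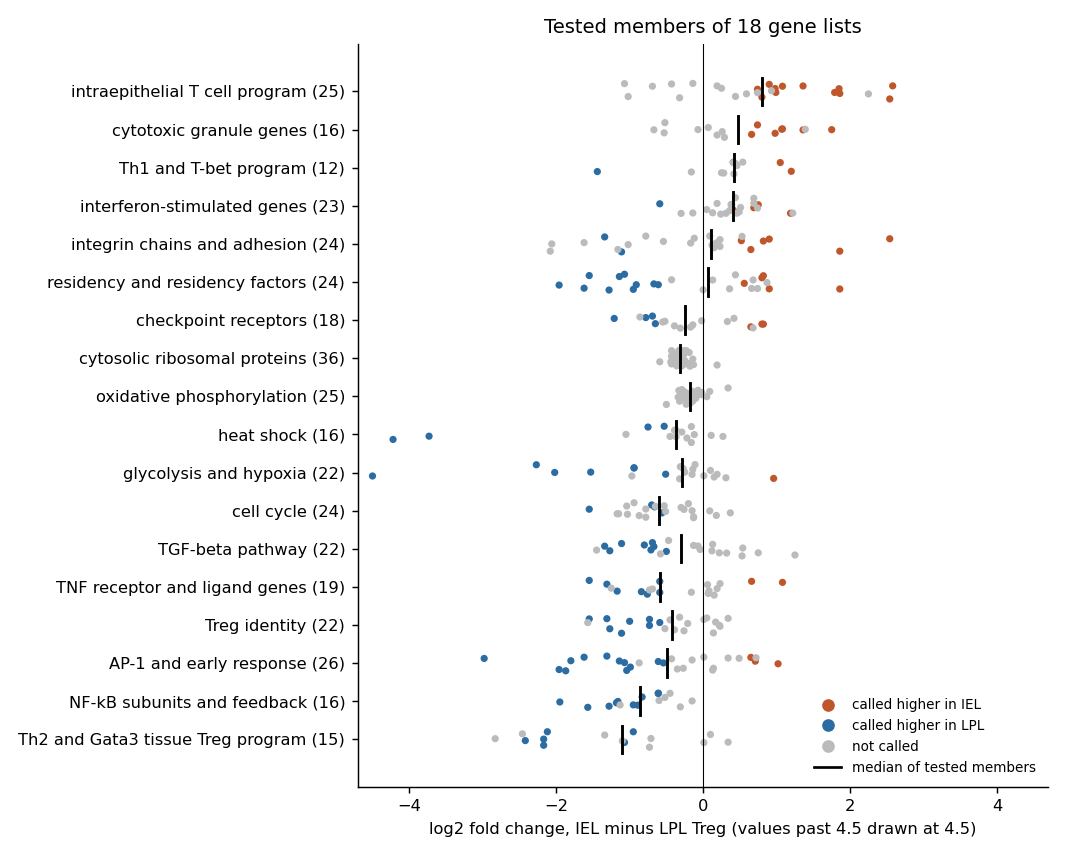
Log2 fold change (IEL minus LPL Treg) of the tested members of 18 gene lists, with the number tested in brackets, calls in colour and the median of each list as a black bar; 1 member past 4.5 is drawn at 4.5. The NF-kB list lies wholly on the LPL side with 10 of 16 called, and the intraepithelial T cell list has 12 of 25 called higher in IEL.

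Of the suppressor genes, Il10 (ENSMUSG00000016529.5, chr1:131019845-131024974, plus strand) was counted at 344, 226 and 263 CPM in the IEL libraries and 694, 709 and 753 CPM in the LPL libraries (log2 fold change -1.44 ± 0.15 SE, adjusted p = 0.00131). IEL replicate 1 was the highest of its group at 344 CPM, below all LPL libraries. Il10 was nonetheless far above Treg of the other sources, whose means ran from 0.219 CPM in blood to 63.4 CPM in kidney. Ebi3, a subunit of interleukins 27 and 35, was higher in LPL (26.4, 20.2 and 18.7 against 49.1, 39.3 and 40.4 CPM), and Fgl2, a secreted suppressor, was higher in IEL (988, 937 and 1059 against 480, 588 and 651 CPM, 0.72 ± 0.13). With Areg, Prf1 and Gzmb these made 3 genes higher in each compartment of 15 tested, 40% in all against 5.22% of all genes tested. The 3 higher in IEL became 1 without IEL replicate 1 or 2, and the 3 higher in LPL became 5 without IEL replicate 3 or LPL replicate 1 and 6 with both libraries rich in enterocyte transcripts left out. Ctla4 (ENSMUSG00000026011.13, chr1:60887000-60915832, plus strand), the inhibitory receptor for CD80 and CD86, was at 2647, 2190 and 2141 CPM in the IEL libraries and 2704, 3013 and 2983 CPM in the LPL libraries (log2 fold change -0.39 ± 0.11 SE, adjusted p = 0.0937). The values did not overlap, and the difference did not pass the threshold.

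Receptors of the TNF family costimulate Treg. Tnfrsf4, which encodes OX40, was at 468, 419 and 444 CPM in the IEL libraries and 1142, 1327 and 1251 CPM in the LPL libraries (log2 fold change -1.55 ± 0.10 SE, adjusted p = 2.22e-04), and Tnfrsf9, which encodes 4-1BB, at 434, 467 and 412 against 864, 1147 and 1088 CPM (-1.31 ± 0.13). Tnfrsf1b, TNF receptor 2, and Tnfrsf8, CD30, followed (-0.84 ± 0.13 and -1.17 ± 0.14). In this family 47.4% of the genes tested were called, against 5.22% of all genes tested. Of 19 genes of the family tested, 7 were higher in LPL and 2, the ligands Fasl and Tnfsf10, higher in IEL. The 2 became 1 without any 1 library other than IEL replicate 3. The count of 7 was 3 without IEL replicate 1 or LPL replicate 2, and 4 without IEL replicate 2, IEL replicate 3 or LPL replicate 3. Of 22 Treg identity genes, 8 (36.4%, against 3.01% of all genes tested) were higher in LPL and none in IEL (median -0.42). Besides the TNF receptors they included Lrrc32, which presents latent TGF-beta on the Treg surface (217, 286 and 171 against 499, 578 and 469 CPM, -1.27 ± 0.18), Itgb8 and Swap70 (-0.73 ± 0.10). That count was 3 without IEL replicate 1, 4 without IEL replicate 2, IEL replicate 3 or LPL replicate 2, and 5 without LPL replicate 3. Genes of checkpoint and costimulatory receptors and their ligands divided. Higher in LPL were Pdcd1, which encodes PD-1 (365, 421 and 279 against 754, 828 and 768 CPM, -1.21 ± 0.15), its ligand genes Cd274 and Pdcd1lg2, and Cd28. Cd226, Cd160 and Cd96 were higher in IEL. Of the 18 tested, 38.9% were called, against 5.22% of all genes tested. Without IEL replicate 1 or LPL replicate 2 only 1 checkpoint gene was higher in LPL and none in IEL. The counts were 2 and 1 without IEL replicate 2, 2 and 2 without IEL replicate 3, and 1 and 2 without LPL replicate 3.

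TGF-beta maintains both Itgae expression and peripheral Treg. Of 22 genes of its pathway, 8 (36.4%, against 3.01% of all genes tested) were higher in LPL and none in IEL. The median was -0.30, but -0.11 with the epithelial share as a covariate and -0.10 with both libraries rich in enterocyte transcripts left out. The genes at the surface, Lrrc32, Nrros (78.8, 84.1 and 91.8 against 136, 129 and 157 CPM), Itgav and Itgb8, present or activate the latent cytokine. Skil and Tgif1, repressors of the response, were at 564, 548 and 466 against 730, 869 and 854 CPM and 432, 388 and 354 against 525, 613 and 664 CPM, and Ldlrad4, an inhibitor of receptor signalling, at 54.3, 61.8 and 55.9 against 79.2, 93.1 and 87.8 CPM. The count of 8 was 0 without IEL replicate 1, 3 without LPL replicate 2 or 3, 4 without IEL replicate 2 or 3, and 10 without LPL replicate 1. Of 25 interleukin receptors, Il7r was at 101, 134 and 117 CPM in the IEL libraries and 261, 407 and 379 CPM in the LPL libraries (log2 fold change -1.65 ± 0.19 SE, adjusted p = 0.00248) and Il4ra at 481, 524 and 372 against 956, 1260 and 934 CPM (-1.26 ± 0.16), and 6 in all were higher in LPL against 3 in IEL. The 3 became 0 without IEL replicate 1, and 1 without IEL replicate 2, any LPL replicate or both libraries rich in enterocyte transcripts, and the 6 became 3 without LPL replicate 2. Il7r was called in all 15 alternatives. In either direction 36% of the 25 interleukin receptors were called, against 5.22% of all genes tested.

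Genes of tissue residency did not move together. Of 24 tested, 5 were higher in IEL (Itgae, Ccr9, Rgs1, Hic1 and Itga1) and 10 higher in LPL, and the median was 0.07. The share called was 62.5%, against 5.22% of all genes tested. Bhlhe40, a transcription factor of resident and cytokine-producing T cells, was at 571, 558 and 569 CPM in the IEL libraries and 1364, 1594 and 1769 CPM in the LPL libraries (log2 fold change -1.55 ± 0.12 SE, adjusted p = 4.64e-04), and its IEL libraries lay within 558 to 571 CPM. The count of 10 was 6 without IEL replicate 1 or LPL replicate 2, and the count of 5 was 1 without either of these and 3 without IEL replicate 2, without IEL replicate 3 or without both libraries rich in enterocyte transcripts. Among sensors of the environment, Ahrr, a repressor induced by the aryl hydrocarbon receptor, was higher in IEL (113, 123 and 124 against 22.2, 41.5 and 47.6 CPM, 1.62 ± 0.27, adjusted p up to 0.096 with 1 library left out). Ahrr was the only one called of 15 genes of that pathway tested, a share of 6.67%, near the 5.22% of all genes tested. Cyp1b1 and Cyp1a1, enzymes induced by the same receptor, were at 10.3, 5.17 and 4.49 against 0.905, 1.88 and 2.28 CPM and 6.29, 8.6 and 5.92 against 4.03, 4.71 and 3.91 CPM and did not pass.

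Of 22 glycolysis and hypoxia genes, 7 were higher in LPL and 1 in IEL, a share of 36.4% against 5.22% of all genes tested. Ndrg1, a hypoxia-induced gene, was at 8.99, 12 and 13 CPM in the IEL libraries and 46.8, 38.6 and 46.5 CPM in the LPL libraries (log2 fold change -2.02 ± 0.20 SE, adjusted p = 0.00131), and Slc2a1, the glucose transporter GLUT1, at 109, 116 and 117 against 201, 195 and 228 CPM (-0.94 ± 0.11). Hk2, Egln3 and Adm were called as well. Txnip, which restrains glucose uptake, was the gene higher in IEL (423, 617 and 683 against 257, 258 and 329 CPM, 0.96 ± 0.19). Its call was lost without IEL replicate 2, IEL replicate 3, LPL replicate 1, LPL replicate 2 or both libraries rich in enterocyte transcripts. The count of 7 was 2 without LPL replicate 2 or 3 and 4 without IEL replicate 1 or 2. None of 25 oxidative phosphorylation genes was called by edgeR, DESeq2 or limma voom, and 1 had an unadjusted p below 0.05. None of 36 ribosomal protein genes was called by edgeR or limma voom, 3 were called by DESeq2, and 6 had an unadjusted p below 0.05. Of the ribosomal protein genes, 35 had a negative log2 fold change, with a median of -0.32 and, with DESeq2 size factors, 35 again and -0.35. Of 24 cell cycle genes 4 (16.7%, against 3.01% of all genes tested) were higher in LPL. These were H2afz, Mcm3, Pcna and Cdkn1a, which encodes an inhibitor of the cycle. The count of 4 was 1 without IEL replicate 1, IEL replicate 2 or LPL replicate 2, and 2 without IEL replicate 3. Of the 24, 21 had a negative log2 fold change (median -0.60), and 12 were called by DESeq2 and 4 by limma voom.

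Tconv of the same compartments gave measurements that the Treg comparison did not use. They had 1 library each, so no test was made on them alone. Of 308 genes called higher in IEL Treg with at least 20 counts in the Tconv libraries, 280 (90.9%) were higher in IEL than in LPL Tconv, against 60.5% of all 13027 genes. Of 421 genes called higher in LPL Treg, 372 (88.4%) were higher in LPL Tconv, against 39.5% of all genes. Leaving out genes of the other-cell lists gave 90.9% and 88.2%. Itgae was at 930 and 248 CPM, Cd7 at 437 and 100 CPM and Cd83 at 38.8 and 127 CPM in IEL and LPL Tconv. The Tconv libraries held other cells too, since IEL Tconv had 2299 CPM of enterocyte and 801 CPM summed over the genes of CD8 and gamma delta T cells, and LPL Tconv had 14583 CPM of B cell and plasma cell genes. The part of these, and of the isolation of cells from each compartment, in the shared directions was not tested.

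**Figure D5:**
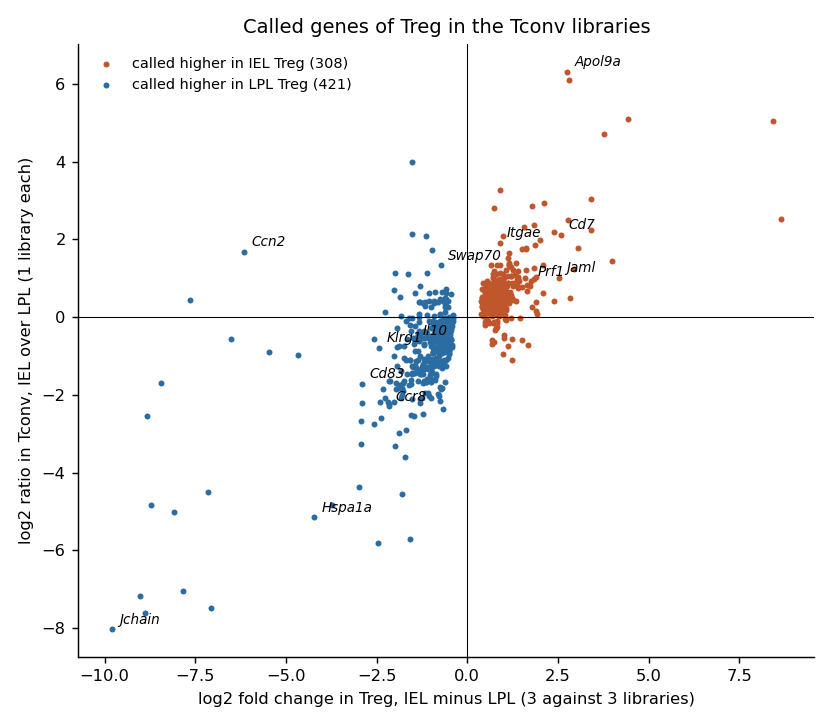
Genes called between IEL and LPL Treg, with the log2 fold change in Treg on the x axis (3 against 3 libraries) and the log2 ratio of IEL over LPL Tconv on the y axis (1 library each, 1 count added). Of the genes called higher in IEL Treg 280 of 308 lie above 0 on the y axis, and of those called higher in LPL Treg 372 of 421 lie below 0.

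Whether the compartment effect itself differed between Treg and Tconv was tested as an interaction over 8 libraries, with the single Tconv libraries assumed to vary like the Treg libraries. Of 18532 genes tested, 6 were called (0.0324%), and 1390 had an unadjusted p below 0.05. With other settings the number was 0 with limma voom, 0 with all 40 libraries in the fit and 55 without a filter on low counts. It was 0 without IEL replicate 1 or LPL replicate 2, 1 without IEL replicate 2, 2 without IEL replicate 3 and 3 without LPL replicate 3. Nrp1, a surface receptor of thymus-derived Treg, overlapped between the compartments in Treg (76.2, 86 and 68.2 against 42.1, 61.6 and 69.8 CPM) and stood at 2.62 and 41.1 CPM in IEL and LPL Tconv.

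Treg of Peyer's patch, the lymphoid tissue of the same gut segment, were placed against both compartments by their mean over 3 libraries. For the 427 genes called higher in LPL, the Peyer's patch mean was below both compartments for 275, between them for 129 and above both for 23. For the 313 genes called higher in IEL it was below both for 69, between them for 141 and above both for 103. Prf1 was at 17.1 CPM, Gzmb at 279 CPM, Itgae at 480 CPM, Il10 at 40.2 CPM and Cd83 at 559 CPM in Peyer's patch Treg. Prf1 was thus near its LPL level, Gzmb, Itgae and Il10 were below both compartments, and Cd83 lay between them.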

How the data were processed

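The authors deposited a table of raw gene counts, 55421 genes in 40 columns, each matched to a sample by its label. Per the submitters' processing notes, the tools named are FastQC, MultiQC, Trim Galore, STAR, featureCounts, DESeq2 and DESeq, and the genome build is mm10. Versions, gene annotation and strand setting are not given in the sources used here, so overlapping antisense genes cannot be told apart. Gene symbols came from a reference table of identifiers and symbols, which named 55154 genes (54587 with the version of the identifier), and coordinates are those of the count table.

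The counts of the 6 gut Treg libraries were filtered with filterByExpr, scaled by TMM and tested with edgeR 4.0.16 in R 4.3.3 (robust quasi-likelihood test, Benjamini-Hochberg adjustment over all genes tested, called below 0.05, no replicate block). CPM scale each count to the library total, without the TMM factors, which ran from 0.957 to 1.03. Alternatives used DESeq2 1.42.0, limma 3.58.1 and other filters, scalings and sets of libraries. The test was checked on counts simulated independently for each gene. Transcripts of other cells that rise together in single libraries were not part of that check. A floor of 3 counts (95% confidence) covers counting error only. At 21608197 counts or more, 3 counts are at most 0.139 CPM.

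The members and the 45 gene lists were chosen with earlier results of these data known, and lists were described without a set test. Genes were named by rule: of those called and at least 2-fold different, the 12 in each direction with the smallest p and the 5 with the largest change at 10 CPM or more, up to 6 by p from each list, up to 4 by level from each list of other cells, the 4 markers, Foxp3, and 5 a side from the Treg against Tconv interaction. The choices by p and by size of change skipped predicted genes, segments of antigen receptor genes and genes of the other-cell lists. Promoter sequences are RefSeq's (GRCm38.p6), matched by symbol for 10004 of the tested genes. Values of some genes, 1 of the 6 of the interaction among them, are not reported here. Figures were drawn with matplotlib 3.10.9.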

Additional observations from a re-analysis of the deposited data

Results flagged for a closer look

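The compartment effect differed between Treg and Tconv, by the interaction test of edgeR, for 6 genes, 5 of which are given here, with 1 Tconv library per compartment. The values that follow are the Treg log2 fold change (IEL minus LPL) minus that of Tconv. Rbm24, an RNA-binding protein, was at 26.4, 20.8 and 24.7 against 36.3, 31 and 35.5 CPM in Treg and at 3.81 against 83.7 CPM in Tconv, a difference of 3.97 on the log2 scale. Nrp1 differed by 4.40, with the levels given above, its Tconv level being higher in LPL. Swap70, a Treg identity gene, was at 102, 104 and 109 against 160, 167 and 170 CPM in Treg and at 42.7 against 16.8 CPM in Tconv, a difference of -1.97. The transcript 2900026A02Rik, which the naming rule leaves out, was at 106, 110 and 95 against 56.1, 56.6 and 45.1 CPM in Treg and at 61.5 against 6.34 CPM in Tconv, a difference of -2.26. Ky was at 32.6, 29.6 and 36.8 against 36.2, 59.9 and 47.6 CPM in Treg and at 2.56 against 0 CPM in Tconv, and its fitted difference of -9.44 depends on the prior count because LPL Tconv had no count. The Tconv libraries differed in epithelial and plasma cell transcripts, and the part of these in the 6 genes was not tested.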

How the results depend on the processing

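Against 740 genes called (313 higher in IEL, 427 higher in LPL), DESeq2 called 1539 (646 and 893) and the fit of all 30 Treg libraries called 8 (2 and 6). Over the genes tested in both fits the median gene-wise biological coefficient of variation was 0.307 in the 6 libraries and 0.356 in the 30, the trend's was 0.364 and 0.362, and the cause of the lower count was not tested. Limma voom called 471 genes higher in IEL, and leaving out both libraries rich in enterocyte transcripts, an alternative chosen after seeing the data, left 174 higher in IEL. Leaving out 1 library gave 215 to 581 calls, 64 to 171 higher in IEL and 151 to 410 higher in LPL, and fewer samples alone lower such counts. The interaction gave 6 calls, 0 with limma voom, 0 with all 40 libraries, 55 without a filter, and 0 to 4 with 1 library left out. No alternative reversed a called direction. The epithelial share differed by -0.0992 percentage points (IEL minus LPL), and by -0.186 to 0.0558 with 1 library left out.

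With the replicate number as a block, 619 genes were called (252 and 367). Same-numbered libraries had correlations of deviations of -0.327, 0.054 and -0.511. The highest of all pairs was 0.518, between IEL replicate 3 and LPL replicate 1, both rich in enterocyte transcripts. With 3 libraries per compartment and such transcripts among the deviations, these values cannot tell whether equal numbers mark the same animal or sort.

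Each library came from 2000 sorted cells, transcripts of other cells were found in each library, the labels do not tie libraries to animals, and Tconv had 1 library per compartment.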

Other observations

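Prox1, a transcription factor of lymphatic endothelium that some lymphocytes also express, was at 0.925, 1.98 and 0.926 CPM in the IEL libraries and 6.46, 9.1 and 6.52 CPM in the LPL libraries and was called higher in LPL (log2 fold change -2.59 ± 0.47 SE, adjusted p = 0.0163), a call lost without IEL replicate 1, IEL replicate 3, LPL replicate 2 or LPL replicate 3, while Pecam1, an adhesion molecule of endothelium and leukocytes, overlapped (65.4, 85.2 and 79.1 against 72.4, 84.1 and 85.5 CPM). Kit, a receptor of mast cells and progenitors, was at 31.9, 52.3 and 41.1 against 24, 38.2 and 64.8 CPM and overlapped, and the mast cell gene Cpa3 was below 1 CPM in all 6 libraries. Pancreatic acinar genes summed to 279 CPM in LPL replicate 1 and to between 15.2 and 43.9 CPM in the other 5 libraries, the same library in which goblet cell genes were high. Zg16 belongs to both of these lists and was at 214 CPM there.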
